A study of Mus musculus with 2 samples.

Results

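The 44 genes described here carry out DNA replication or cell division: 21 form an S phase list and 23 a mitosis list. They were chosen by name, and all 44 are among the 18786 genes measured. Innate lymphoid cells (ILCs) are lymphocytes of the tissues that rearrange no antigen receptor, and here they were sorted as CD45+, Lin-, Thy1.2+ cells. They came from the collagenase-digested skin of C57/BL6 mice, taken on postnatal day 1 or 14. Each age is 1 sample, read with the 10x Genomics 5' single-cell kit, and whether animals were pooled is not given in the sources used here. Both ages share strain, tissue, sort and kit. The cells carry 1 of 2 name suffixes, called cell set 1 and cell set 2 below, which match neither age's label, so the sets are described side by side and no age is assigned to them.

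A dividing cell copies its DNA in S phase and separates the copies in mitosis. Replication genes are switched on as cells pass from G1 into S phase, largely through E2F transcription factors, and mitotic genes follow later through the MuvB complex, which works with B-Myb and FoxM1 and binds a short element called CHR, often near CCAAT boxes. Mki67, Top2a and Birc5 are widely used to mark cycling lymphocytes. A few genes of these lists also serve cells that are not dividing, because histone supply, chromatin packing, tubulin and DNA repair are needed outside the cycle too.

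The promoters of 4 members are shown because they stand for the patterns that follow: Mcm6, a replication gene, Ube2c, a mitotic gene found almost entirely in dividing cells, and Slbp and Cenpa, which were also found elsewhere. Each run is 150 bases of the mouse GRCm38.p6 assembly from RefSeq, written 5′ to 3′ on the strand of the gene, with 120 bases before the transcription start and 30 from it onward. Capitals mark CHR letters (TTTGAA or TTCGAA), E2F letters (TTTCCCGC, TTTGGCGC, TTTCGCGC or TTTGCCGC) and CCAAT, each on either strand. They lie at chr1:128359676-128359825 (minus strand), chr2:164769809-164769958 (plus), chr5:33652545-33652694 (minus) and chr5:30666766-30666915 (plus).
Mcm6: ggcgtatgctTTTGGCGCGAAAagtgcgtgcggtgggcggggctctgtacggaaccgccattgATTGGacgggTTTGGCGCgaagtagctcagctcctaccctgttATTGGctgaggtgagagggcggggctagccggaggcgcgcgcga
Ube2c: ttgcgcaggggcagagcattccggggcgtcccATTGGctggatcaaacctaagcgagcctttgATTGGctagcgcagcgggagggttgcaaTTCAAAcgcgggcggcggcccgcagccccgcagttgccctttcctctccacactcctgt
Slbp: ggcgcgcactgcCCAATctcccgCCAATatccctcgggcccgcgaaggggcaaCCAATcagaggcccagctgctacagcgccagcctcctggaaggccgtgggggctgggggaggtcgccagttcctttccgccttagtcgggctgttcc
Cenpa: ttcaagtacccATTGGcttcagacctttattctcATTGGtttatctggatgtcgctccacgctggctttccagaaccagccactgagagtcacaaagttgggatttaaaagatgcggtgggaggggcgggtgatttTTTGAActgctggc
The Mcm6 run holds E2F letters, whose matches overlap each other at the first site, and CCAAT letters on the opposite strand. Both the Ube2c and the Cenpa run hold CHR letters and CCAAT, whereas the Slbp run holds CCAAT only. Over windows of 300 bases, 250 before and 50 after the start, 39 of the 44 members matched an entry, and Mcm4, Gins2, Ccna2, Tpx2 and Aurkb were not used. CHR letters were in 15 of 20 mitosis genes and 4 of 19 S phase genes, against 17.5% of the 13439 measured genes with an entry. E2F letters were in 9 of 19 S phase genes and 1 of 20 mitosis genes, against 4.01%. CCAAT was in 14 of 19 and 18 of 20, against 42.0%. A match is a description of letters and not a bound site.

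After cells with over 10% mitochondrial UMIs were left out, 1441 cells remained in set 1, at a median depth of 10683 UMIs (unique molecule tags), and 3508 in set 2, at 4849, and the sets shared 4 barcodes. Marker cells are those in which Mki67, Top2a and Birc5 together reached 3 UMIs. They numbered 451 of 1441 in set 1 (31.3%, Clopper-Pearson 95% interval 28.9 to 33.8%) and 177 of 3508 in set 2 (5.05%, 4.34 to 5.82%), and 23.4% and 5.10% of cells after each cell was thinned to 4108 UMIs, which left out 63 and 1174 shallower cells. Thinned cells were classed again by their own marker UMIs, which gave 322 and 119 marker cells. In set 1, outside cells numbered 990 before thinning and 1056 after it. Thinned outside cells there thus include some that were marker cells at full depth. The same holds in set 2, where E2f8 had a UMI in 0 outside cells at full depth and in 1 thinned outside cell. At the threshold and at full depth, 40 and 27 cells had exactly 3 such UMIs, and 75 and 86 cells had 2. Marker cells were the deeper cells, with a median of 15545 UMIs against 9283.5 outside them in set 1 and 9019 against 4747 in set 2. All 8 general ILC markers were present in both sets, at a summed 5101 and 7342 UMIs per 1000000 (CPM). The 3 T cell genes measured summed to 24.6 and 35.3 CPM. These are sums of different genes and do not by themselves tell ILCs from T cells. Trac, 1 of the 3, had a UMI in 12.9% of marker cells and 9.49% of outside cells in set 1. In set 2 these shares were 20.9% and 8.35%. RNA of other skin and blood cells differed between the sets: 4 keratinocyte genes summed to 108 and 15.03 CPM, 3 mast cell genes to 70.1 and 0.444, 3 fibroblast genes to 55.5 and 2.55, and 3 globin genes to 122 and 198. Krt14, a keratinocyte gene that lymphocytes should lack, had a UMI in 36.7% of cells outside marker cells in set 1 and 0.871% in set 2, and the globin Hbb-bs in 25.6% and 5.10%. A member whose share of outside cells is at or below the larger of these is not told apart from background RNA by that share. Above both were 5 members in set 1 (Slbp, Cenpa, Cks2, Hmgb2 and Tubb4b) and 13 in set 2. The part of background RNA in the results was not tested. No source used here ties a set to a sample, and no replicates within a set are known, so no test was run. Intervals are 95% intervals that cover counting error only, and levels of different genes are not compared.

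The replication genes were higher in marker cells than outside them, with Ung as the exception in both sets, and the median contrast was steeper in set 2. The ratio of CPM in marker cells to CPM outside had a median of 4.04 over the 21 S phase genes in set 1 and 8.18 in set 2, beside 1.03 and 1.07 over all genes with at least 20 UMIs. A gene is called confined at a ratio of at least 10 and found outside at a ratio under 2. In set 1, 5 of 21 S phase genes were confined, where 1.35% of all genes tested were. In set 2, 10 of 21 were, where 1.5% of all genes were. The 5 of set 1 were all among the 10 of set 2: Tyms, which makes the thymidine precursor, Rrm2, the regulated subunit of ribonucleotide reductase, the helicase loader Cdc6, the checkpoint adaptor Clspn, and E2f8, a repressor of the E2F family.

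E2f8 had the highest ratio of the list in both sets. It stood at 21.1 CPM in marker cells of set 1 and 0.426 outside, and at 22.2 CPM in marker cells of set 2 with 0 UMIs in 3331 outside cells, which allows up to 0.0901% of outside cells to hold an E2f8 UMI and sets no limit on cells that express it below detection. With those cells set to the floor of 3 UMIs, its level in marker cells of set 2 was at least 121-fold higher. Cdc6 followed at 43.2 against 2.45 CPM in set 1 (17.6-fold, 11.5 to 28.3) and 26.9 against 0.736 CPM in set 2 (36.6-fold, 19.1 to 75.9). Rrm2 had 76.6 against 4.37 CPM in set 1 and 115 against 3.43 CPM in set 2. Rrm1, the other subunit of the enzyme that Rrm2 belongs to, stood at 21.4 and 13.4 CPM outside, with ratios of 6.15 and 7.62.

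The 6 subunits of the MCM helicase, which opens the DNA at replication forks, were raised in marker cells to unequal degrees. Mcm2 had the lowest ratio of the 6 in both sets, 1.98 (1.63 to 2.40) in set 1 and 3.22 (2.35 to 4.34) in set 2. Mcm3 had the highest, 5.05 (4.41 to 5.79) and 12.2 (10.0 to 14.9). Mcm2 stood at 19.2 and 10.7 CPM outside marker cells, and Mcm3 at 28.9 and 11.2. Pcna, the sliding clamp that holds the polymerase on DNA, had ratios of 2.46 and 3.62 and the same outside level in both sets, 46.3 and 46.4 CPM. Gins2, a part of the active helicase, had 27.2 CPM in marker cells and 15.3 outside in set 1 (1.77-fold, 1.42 to 2.22), and 28.1 and 3.43 CPM in set 2 (8.18-fold, 5.44 to 12.2). Its marker level was alike in the sets, and its outside level was not. Cdc45, the helicase's other partner, had ratios of 6.41 and 22.7.

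Among the mitosis genes the split was sharper. The 3 genes that define marker cells are left out of the counts: their ratios, 30.6 and 41.6 for Top2a, 40.8 and 48.4 for Mki67 and 93.2 and 182 for Birc5, follow from the choice of cells. Of the other 20, the same 14 were confined in both sets, and the median ratio was 20.2 in set 1 and 50.7 in set 2. Over all genes tested, 1.35% were confined in set 1 and 1.5% in set 2. These 14 were Cdk1, the kinase that drives entry into mitosis, its cyclins Ccnb1, Ccnb2 and Ccna2, the kinetochore proteins Cenpf, Cenpe and Bub1, the spindle proteins Tpx2, Nusap1 and Kif11, the kinases Aurkb and Plk1, and Ube2c and Cdc20, which serve the anaphase-promoting complex. Over both lists, 19 of 41 members were confined in set 1 and 24 in set 2, and all 19 were among the 24. When marker cells were chosen by Cdk1, Ccna2 and Tpx2 in place of the 3 genes, 8 members were confined in set 1 and 24 in set 2. That count leaves out Cdk1, Ccna2 and Tpx2 and takes in Mki67, Top2a and Birc5, so it covers a different set of 41 genes.

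Ccna2 had the highest ratio of the 20 in both sets. It stood at 89.4 CPM in marker cells and 1.17 outside in set 1 (76.3-fold, 42.3 to 154), and in set 2 at 84.8 CPM with 1 UMI among all outside cells. Nusap1, which bundles spindle microtubules, had 222 against 3.73 CPM in set 1 (59.4-fold, 42.6 to 85.6) and 230 against 1.90 CPM in set 2 (121-fold, 83.9 to 180). Bub1, a spindle checkpoint kinase, had ratios of 48.8 and 114. Ube2c, whose promoter is shown above, had 273 against 13.1 CPM in set 1 and 310 against 2.39 CPM in set 2, so its ratio went from 20.9 to 130. Ube2c overlaps Tnnc2 on the opposite strand, Nusap1 overlaps Oip5 and Ccna2 overlaps Exosc9. Whether counting used strand is not given in the sources used here, so reads of these pairs may not be told apart.

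The 6 mitosis genes confined in neither set were Aurka, Cks2, Hmgb2, Kif23, Tubb4b and Cenpa. Aurka, a centrosome kinase, had ratios of 5.36 and 9.54, the latter just under the limit of 10. Hmgb2, a chromatin-bending protein, had 3396 CPM in marker cells and 770.4 outside in set 1, and 3232 and 911 CPM in set 2, with a UMI in 95.05% and 86.1% of outside cells. Tubb4b, a beta-tubulin, had ratios of 2.78 and 2.92, and Cks2, which binds the mitotic kinase, 2.24 and 4.30. Kif23, a motor of cytokinesis, had 42.9 and 24.7 CPM outside. Hmgb2, Tubb4b and Cks2 have close paralogues, and how reads that fit more than 1 copy were counted is not given in the sources used here.

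**Figure D1:**
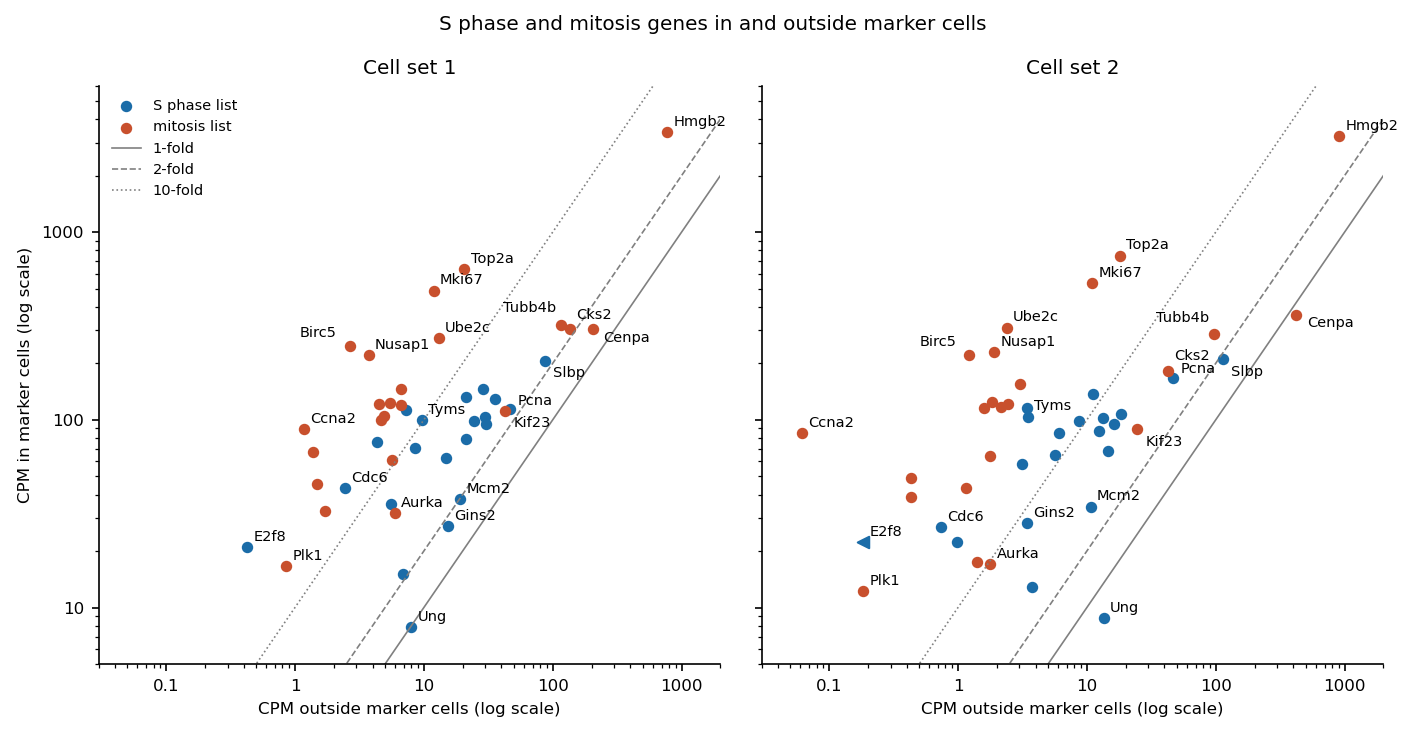
CPM in marker cells (y axis, log scale) against CPM outside them (x axis, log scale) for the 44 members in each cell set, with lines at equal level, 2-fold and 10-fold; the triangle is E2f8 in set 2, drawn at the floor of 3 UMIs. Most mitosis genes lie above the 10-fold line in both sets, S phase genes spread around it, and Cenpa and Ung lie near the line of equal level.

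Of the 41 members, 4 were found outside in set 1 and 3 in set 2, a class that held 93.9% of all genes tested in set 1 and 90.8% in set 2. In set 1 they were Mcm2, Ung, Gins2 and Cenpa, and in set 2 Ung, Slbp and Cenpa. A UMI of Mcm2 was in 15.3% of outside cells of set 1 and one of Gins2 in 11.9%. Both lie below the share for Krt14, so these shares do not tell them apart from background RNA. Cenpa and Ung were found outside in both sets. Mcm2 in set 1 and Slbp in set 2, at 1.86-fold, lay just inside the limit of 2, and Chaf1b in set 1, at 2.19-fold, just outside it.

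Cenpa encodes the histone H3 variant that marks centromeres. It stood at 304.5 CPM in marker cells (292 to 318) and 205 outside (196 to 215) in set 1, a ratio of 1.48 (1.39 to 1.58). In set 2 it stood at 363 CPM in marker cells (335 to 393) and 422 outside (412 to 432), a ratio of 0.860 (0.791 to 0.934). Its direction thus differed between the sets, and marker cells held 52.9% of its UMIs in set 1 but 8.27% in set 2, where they held 43.2% and 9.49% of all UMIs. In cells with no UMI of the 3 marker genes it still stood at 208 and 434 CPM. A Cenpa UMI was present in 50.5% of outside cells in set 1 and 52.7% in set 2, and after thinning in 38.8% and 53.7%, each above the share for Krt14 and Hbb-bs. The gene lies at chr5:30666777-30674830 on the plus strand of GRCm38 in the GENCODE M21 annotation, and no other annotated gene overlaps it.

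Cenpa was uneven among outside cells. In thinned set 2 cells outside marker cells, 1026 of 2215 (46.3%) had none, while 101 (4.56%) had at least 8 UMIs, and the richest cell before thinning held 36. In set 1, 646 of 1056 outside cells (61.2%) had none and 10 (0.947%) had at least 8. In both sets these thinned outside cells include some that were marker cells at full depth. Marker cells of set 1 had at least 8 in 1 of 322 (0.311%), and those of set 2 in 2 of 119 (1.68%). Before thinning, the highest count in any cell was in a marker cell of set 1, at 69. Cells with many Cenpa UMIs thus occurred both with and without the division markers.

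**Figure D2:**
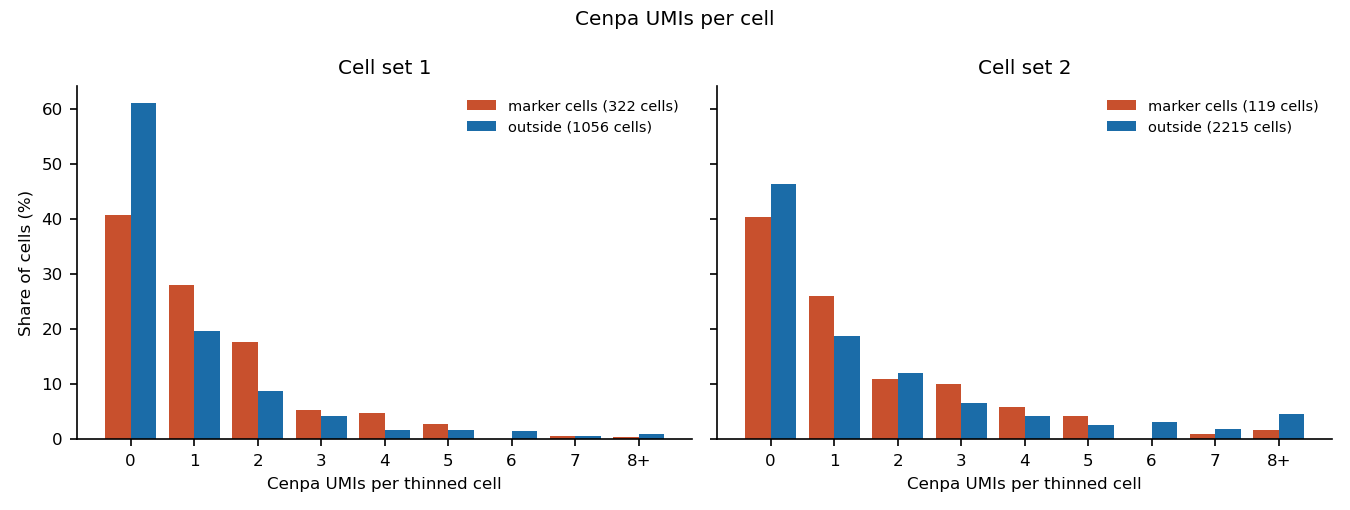
Share of thinned cells (y axis, %) by the number of Cenpa UMIs per cell (x axis) in marker cells and outside them, classed by marker UMIs after thinning, for each cell set. In set 2, 4.56% of outside cells had 8 or more Cenpa UMIs, against 1.68% of marker cells.

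Cenpa UMIs outside marker cells were set against those of the 17 mitosis genes that were confined or define marker cells, without the gene looked at. In set 2, thinned outside cells with a Cenpa UMI had a mean of 0.261 such UMIs, against 0.251 in cells without one. In set 1 the means were 0.985 and 0.615. In both sets, thinned outside cells include some marker cells of full depth. For Nusap1 the same means were 3.83 against 0.587 in set 1 and 1.27 against 0.240 in set 2, from 40 and 15 cells with a Nusap1 UMI. Outside cells with a Nusap1 UMI thus held more other mitotic RNA in both sets, those with a Cenpa UMI held more in set 1, and in set 2 the means lay close together.

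UMIs per cell outside marker cells were then correlated with those of Cenpa, for genes with a UMI in at least 10% of these cells. Apart from Top2a, which defines marker cells, no member confined in a set reached this share there, so few division genes could appear. Among the genes ranked, those that went most closely with Cenpa were not division genes. In set 1, over 1056 thinned cells and 4048 genes, the 5 highest Pearson correlations of log counts were with Cd164, a sialomucin (0.38), Il2rb, the IL-2 receptor beta chain (0.32), Eprs, a tRNA synthetase (0.31), Usmg5 (0.29) and Pdcd1, the inhibitory receptor PD-1 (0.28). In set 2, over 2215 cells and 3832 genes, they were with Vps37b, an ESCRT protein (0.41), Eprs (0.36), the costimulatory receptor Icos (0.33), Emb (0.33) and Ifngr1 (0.29). Eprs was in both sets' 5. Cd164 stood at 113 CPM in set 1 cells with no Cenpa UMI, at 159 with 1 and at 459 with at least 2. Vps37b stood at 929, 1379 and 2101 CPM in the same classes of set 2. Of the other members that were ranked, Tubb4b was highest in set 1, at 0.10, and Hmgb2 in set 2, at 0.087. Cells of a set are not replicates, counts are sparse, and these correlations are a description with no test.

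Ung removes uracil from DNA, both at replication and in repair. It had 7.86 CPM in marker cells and 7.99 outside in set 1 (0.984-fold, 0.683 to 1.41), and 8.77 and 13.5 CPM in set 2 (0.648-fold, 0.356 to 1.09), and both intervals include 1. Its share of outside cells was 6.57% and 6.004%. In set 1 this was below that of Krt14, so Ung is not told apart from background RNA there. In set 2 it was just above that of Hbb-bs. Within marker cells Ung was far from even, as the split of marker cells shows. Slbp, which binds the end of replication-dependent histone mRNAs, had 207 CPM in marker cells and 86.6 outside in set 1 (2.39-fold, 2.19 to 2.60), and 211 and 113 CPM in set 2 (1.86-fold, 1.66 to 2.09). A Slbp UMI was in 48.9% and 37.5% of outside cells, above both reference genes.

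Outside cells with a UMI of Gins2, Ung or Mcm2 held more UMIs of the other S phase genes, while for Cenpa those means were 2.13 with and 2.21 without in set 1 and 1.33 and 1.32 in set 2. In set 1, the 70 thinned outside cells with a Gins2 UMI had a mean of 4.63 UMIs of the other S phase genes, against 1.92 in cells without. The 35 with an Ung UMI had 4.34 against 2.07, and 0.714 against 0.760 UMIs of the 17 mitosis genes. In set 2 the S phase means for Ung were 1.65 and 1.26. For Mcm2 they were 3.54 and 1.97 in set 1. Slbp showed little of this, with 2.11 against 1.67 in set 1 and 0.906 against 0.824 in set 2. The plot of levels by marker UMIs shows the levels as a gradient: Gins2 stood at 12.5 CPM at 0 marker UMIs, 22.2 at 1 or 2 and 27.2 at 3 or more in set 1, whereas Nusap1 stood at 3.61, 4.003 and 222. In the same classes Mcm6 had 32.4, 42.6 and 129 CPM (set 1) or 17.2, 25.7 and 108 CPM (set 2).

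**Figure D3:**
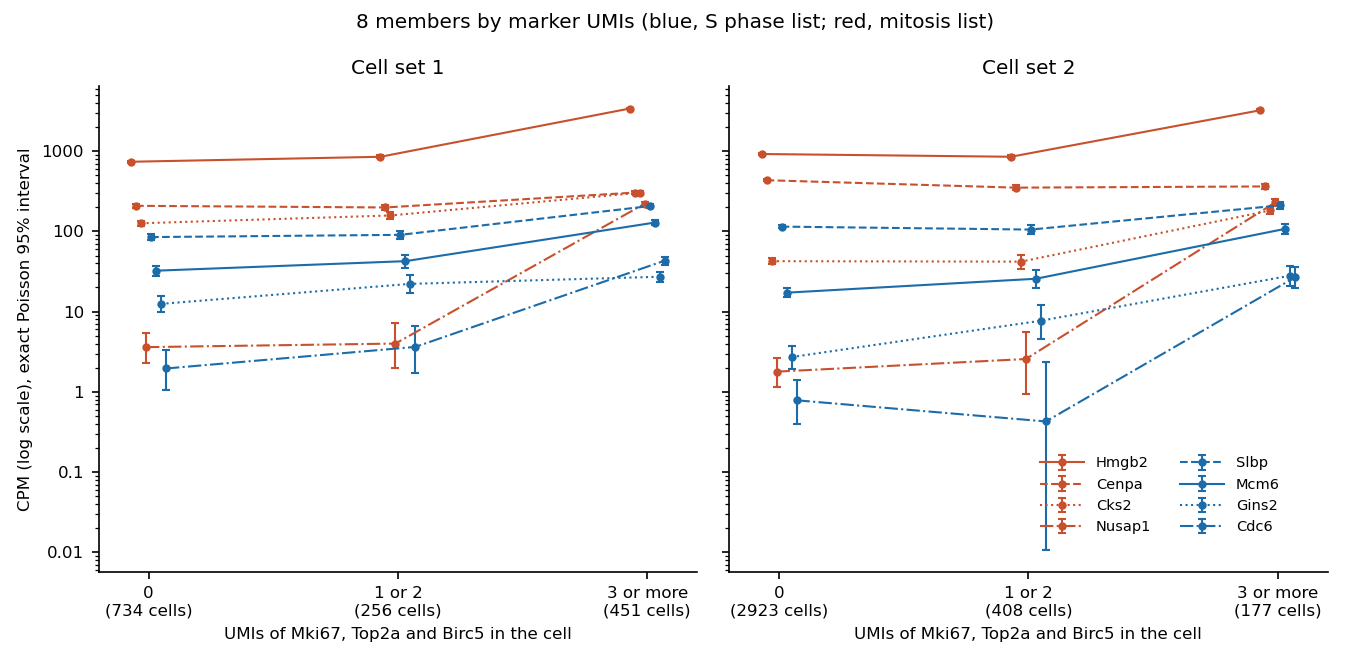
CPM (y axis, log scale, exact Poisson 95% intervals) of 8 members in cells with 0, 1 or 2, and at least 3 UMIs of Mki67, Top2a and Birc5 (x axis), in each cell set. Nusap1 and Cdc6 stay low until the last class, Cenpa and Slbp are high in all 3, and Gins2 is higher in each next class in both sets.

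Within marker cells the 2 lists were set against each other. Each marker cell was given the share of S phase UMIs among its S phase and mitosis UMIs, without the gene being looked at, and was called S-leaning at 0.5 or more. With all members this left 15 of 451 and 7 of 177 cells S-leaning, since Hmgb2 alone had 24206 and 5527 UMIs in marker cells. A second version, chosen after this was seen, used only the 17 mitosis genes that were confined in at least 1 set or define marker cells, and called 159 of 451 (35.3%, 30.8 to 39.9%) and 52 of 177 (29.4%, 22.8 to 36.7%) S-leaning. The values that follow come from it. They describe how the members go together, since the members themselves order the cells, and median depth was close in the 2 classes, 14941 and 15726.5 UMIs in set 1 and 9002 and 9019 in set 2.

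In the split with 17 mitosis genes, all 21 S phase genes were higher in S-leaning cells and all 23 mitosis genes in mitosis-leaning cells, in both sets. The interval of the ratio cleared 1 for 19 S phase and 23 mitosis genes in set 1 and for 16 and 18 in set 2. Ung had the highest ratio of its list in both sets, with 20.6 CPM in S-leaning and 1.28 in mitosis-leaning cells of set 1 (16.2-fold, 6.93 to 46.1), and 21.4 and 3.34 CPM in set 2 (6.42-fold, 1.90 to 27.6). Its even level across marker and other cells thus hid a difference among marker cells. Gins2 followed, with ratios of 3.44 and 2.41. In set 1, Rrm1 had a ratio of 1.07 and E2f8 one of 1.11, and both intervals included 1. In the first version, with all members, 18 of 21 S phase genes in set 1 and 17 in set 2 were higher in S-leaning cells. The interval was above 1 for 12 and 6 of them. The exceptions were Rrm1, E2f8 and Dtl in set 1 and Rrm2, Slbp, E2f8 and Dtl in set 2. All 23 mitosis genes were higher in mitosis-leaning cells there too.

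Ube2c lay at the mitotic end in set 1 and next to it in set 2, behind Ccnb1, which rests on 1 UMI in S-leaning cells there. It had 45.8 CPM in S-leaning and 398.5 in mitosis-leaning cells of set 1, 8.70-fold higher in the latter, and 53.7 and 434 CPM in set 2, 8.08-fold higher. Ccnb2, a B-type cyclin, was 5.10-fold and 6.19-fold higher in mitosis-leaning cells, and Cenpf, a kinetochore protein, 5.13-fold and 4.74-fold. Plk1, a mitotic kinase, was 8.25-fold higher in set 1 and 2.62-fold in set 2, where it had 21 UMIs in marker cells and the interval included 1. Cdk1 and Ccna2 were 2.07-fold and 1.89-fold higher in set 1 and 1.63-fold and 2.23-fold in set 2. Kif11, Kif23 and Aurkb were 1.78-fold, 1.76-fold and 1.75-fold higher in set 1 and 2.17-fold, 1.95-fold and 1.45-fold in set 2. Cenpa was 2.52-fold and 2.03-fold higher in mitosis-leaning cells, so within marker cells it went with its list. Hmgb2 was 1.81-fold higher in both sets.

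**Figure D4:**
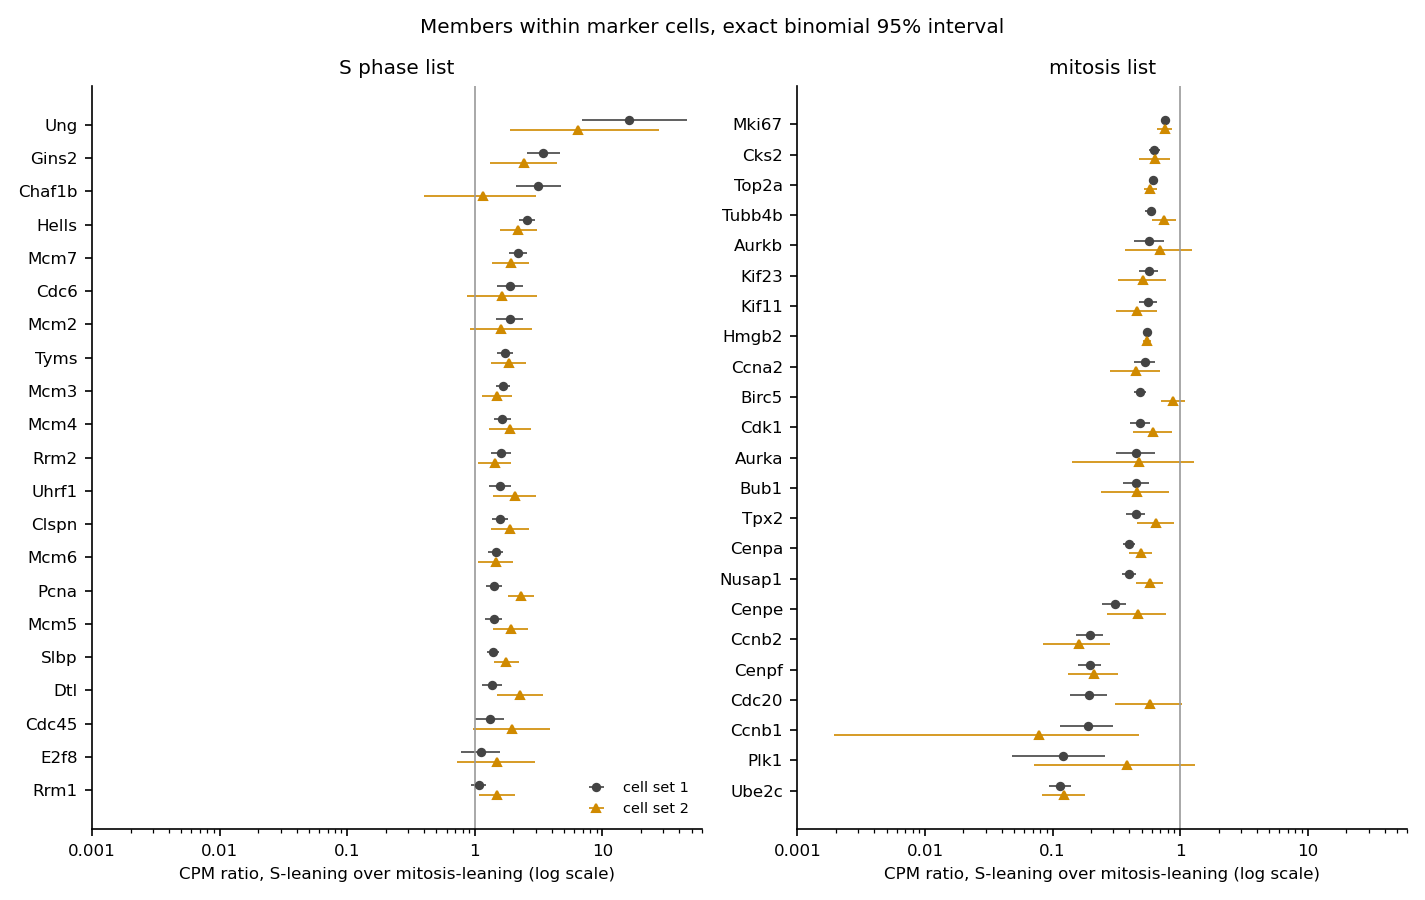
CPM ratio of S-leaning to mitosis-leaning marker cells (x axis, log scale, exact binomial 95% intervals) for each member, by list and cell set, ordered by set 1. Cells were split with 17 mitosis genes. S phase genes lie right of 1 with Ung farthest out, and mitosis genes left of 1 with Ube2c and Plk1 farthest in set 1.

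Between the sets, nearly all members were lower in set 2 over all kept cells, while within marker cells the median difference was small. Counted on all kept cells, set 2 had the lower level of 20 of 21 S phase genes and 22 of 23 mitosis genes, with median log2 ratios (CPM + 1) of -1.60 and -1.96, beside -0.13 over all genes. At least 2-fold lower were 37 of 44, where 12.2% of all genes were. In marker cells none of the 44 was, where 7.97% of all genes were, and the medians were -0.09 and -0.08. These include the 3 genes that define marker cells, whose level there follows from the choice of cells. Without them the mitosis median was -0.13. Single members did differ in marker cells: intervals lay below 1 for 6 S phase and 9 mitosis genes and above 1 for 3 and 4. With marker cells chosen at 2 UMIs, or after thinning, 2 members were at least 2-fold lower in marker cells.

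When the marker and outside levels of set 2 were combined in the proportion of UMIs that marker cells held in set 1, 43.2% in place of 9.49%, 2 of 44 members were at least 2-fold lower, Aurka at 0.484-fold and Cks2 at 0.495-fold. The medians were then -0.36 for the S phase and -0.13 for the mitosis list. Set 2 cells were also shallower and carried less keratinocyte, mast cell and fibroblast RNA, as given above, and the part of these in the ratios was not tested. Scaling by TMM factors moved the median of all genes towards set 2 by 0.16 (log2) over all kept cells, 0.05 in marker cells and 0.13 outside, and turned the direction of Mcm5 in marker cells and of Mki67 outside.

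The genes lowest in set 2 over all kept cells were Cdc6 at 20.04 and 3.22 CPM (0.161-fold, 0.119 to 0.213), Cdc45 at 18.5 and 2.996, Bub1 at 29.97 and 5.05, and Cenpe, a kinetochore motor, at 46.0 and 7.71. In marker cells Cdc6 was 0.622-fold (0.446 to 0.851), Cdc45 0.626-fold, Bub1 0.726-fold and Cenpe 0.641-fold. The lowest there was Aurka, at 32.0 and 16.96 CPM (0.530-fold, 0.347 to 0.782), beside Ccnb1 at 0.537-fold. Rrm2 and Pcna were higher in set 2 in marker cells, at 1.504-fold (1.27 to 1.77) and 1.47-fold (1.28 to 1.69), while Top2a was 1.18-fold and Ube2c 1.13-fold.

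Ung and Cenpa were the 2 members higher in set 2 over all kept cells. Ung had 7.93 CPM in set 1 and 13.1 in set 2 (1.65-fold, 1.33 to 2.06). Cenpa had 248 and 417 CPM (1.68-fold, 1.62 to 1.74). Nearest to 1 among the rest were Slbp at 0.886-fold, Pcna at 0.768-fold and Hmgb2 at 0.594-fold.

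Outside marker cells, 17 of 20 S phase genes and 19 of 21 mitosis genes with at least 20 UMIs were lower in set 2, with medians of -0.95 and -0.77 beside -0.10 over all genes. Of the members, 22 were at least 2-fold lower, where 9.29% of all genes were, and Cenpa alone at least 2-fold higher, where 8.8% were. In set 1 all members but Slbp, Cenpa, Cks2, Hmgb2 and Tubb4b had outside shares below that of Krt14. The part of background RNA in the ratios was not tested. Ube2c had 13.1 CPM in set 1 and 2.39 in set 2 (0.182-fold, 0.124 to 0.264), and Gins2 stood at 0.224-fold. Cks2 had 135 and 42.5 CPM (0.313-fold, 0.285 to 0.344). Cenpa was 2.06-fold higher (1.95 to 2.16), Ung 1.69-fold, Slbp 1.31-fold (1.21 to 1.42) and Hmgb2 1.18-fold (1.15 to 1.22). The count of 22 became 34 with marker cells chosen by Cdk1, Ccna2 and Tpx2, and 11 with at least 100 UMIs required, which tests fewer members.

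**Figure D5:**
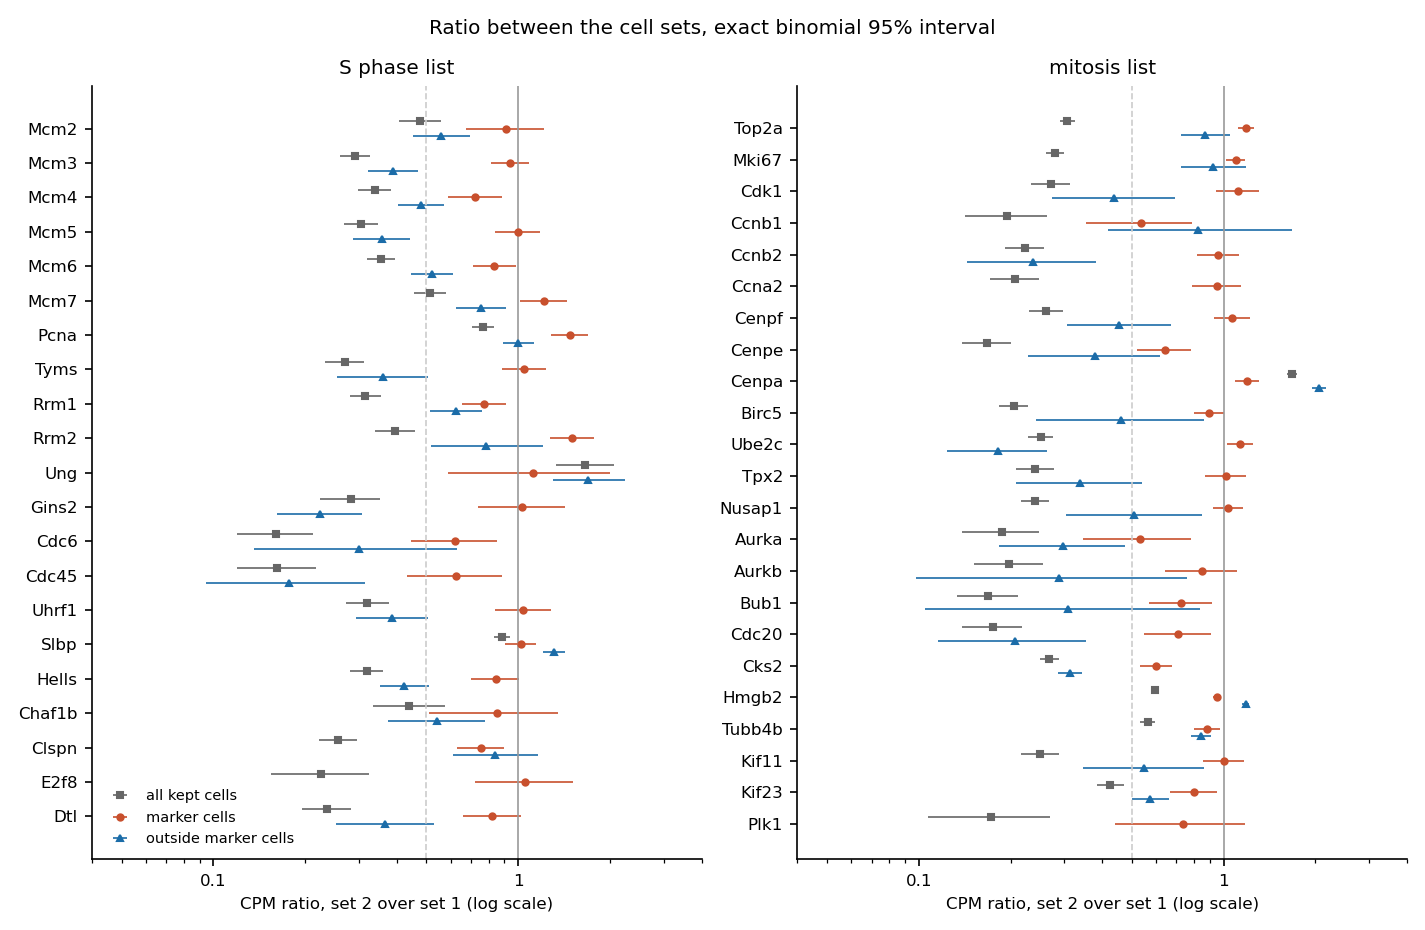
CPM ratio of set 2 to set 1 (x axis, log scale, exact binomial 95% intervals) for each member over all kept cells, in marker cells and outside them; ratios resting on fewer than 20 UMIs, or with 0 UMIs in set 2, are not drawn. Squares (all kept cells) lie left of 1 except for Ung and Cenpa, while circles (marker cells) lie between 0.530 (Aurka) and 1.504 (Rrm2).

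Another 82 cell cycle genes were measured in 8 groups. Of 12 condensin and kinesin genes 10 were confined in set 1 and 11 in set 2, and of 9 kinetochore and checkpoint genes 7 in each set. Of all genes tested, 1.35% and 1.5% were confined. Kif2c, a kinesin that takes microtubules apart, had 110 UMIs in marker cells of set 1 and 0 outside. Found outside were 6 of 12 cyclins and kinases in set 1 and 6 of 11 tested in set 2, among them Ccnd1, Ccnd2 and Ccnd3, and 4 of 6 and 4 of 7 kinase inhibitors tested. These shares are below the 93.9% and 90.8% of all genes that were found outside. Ccnd2, a D-type cyclin of G1, was lower in marker cells, at 110 against 211 CPM in set 1 and 133 against 260 in set 2, ratios of 0.521 and 0.512. Cdkn1b, the inhibitor p27, had ratios of 0.882 and 0.809. Cdkn1a, the inhibitor p21, had 612 and 487 CPM in and outside marker cells of set 1 and 287 and 215 in set 2.

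Of the 12 E2F and MuvB factors 3 were confined in each set, among them Foxm1, at 43.5 and 40.8. Another 4 were found outside in each, among them the pocket proteins Rb1 and Rbl2. Of all genes tested, 1.35% and 1.5% were confined and 93.9% and 90.8% found outside. Hjurp, the chaperone that loads Cenpa onto centromeres, had ratios of 3.68 and 4.04 and was 0.851-fold in set 2 against set 1 outside marker cells, where Cenpa was 2.06-fold. The histone-binding proteins Rbbp4 and Rbbp7, which serve many chromatin complexes, were found outside in both sets. Among paralogues, Hmgb1 had ratios of 2.75 and 3.55 beside 4.41 and 3.55 for Hmgb2, and Cks1b was confined in both sets, at 13.6 and 35.5, where Cks2 was not.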

How the data were processed

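Per the labels' protocols, sorted skin ILCs were captured with a 10x 5' kit. Cell Ranger 3.1.0, Seurat 4.1.0 and the mm10 build are named in the submitters' processing notes; no source used here states their settings. The authors deposited 1 table of UMI counts, whole and unscaled, for 18786 genes in 5246 cells. Its cell names end in 1 of 2 suffixes, and as no source used here ties a suffix to an age, the suffix sets were described.

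Cells with at most 10% mitochondrial UMIs were kept, 1441 and 3508 with 16514632 and 18026148 UMIs. No doublet caller was run, and leaving out the 1% deepest cells was an alternative. UMIs were summed per set and class of cells and given per 1000000 UMIs (CPM) with exact Poisson intervals, ratios with exact binomial and shares with Clopper-Pearson 95% intervals (scipy 1.17.1), checked on simulated counts. Ratios need at least 20 UMIs. TMM factors came from edgeR 4.0.16 and served only as another scaling. The 44 members and the other lists were chosen with earlier results of these data known. The rule for members named in full took, per list, the highest outside level, those found outside, and the 3 highest and 3 lowest ratios of marker to other cells and between the sets. Other members named beside them, the 17-gene split of marker cells and the reweighting of set 2 were chosen after seeing the data.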

Additional observations from a re-analysis of the deposited data

Results flagged for a closer look

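Cenpa was 1.48-fold higher in marker cells than outside them in set 1 and 0.860-fold in set 2, so its direction differed between the sets. Mcm7, a helicase subunit, was 1.21-fold in set 2 against set 1 in marker cells and 0.756-fold outside them, and it overlaps Cops6 and Ap4m1 on the opposite strand. Ube2c was 1.13-fold in marker cells and 0.182-fold outside, and Hmgb2 0.952-fold and 1.18-fold. In each case the intervals lay on opposite sides of 1. None of these differences was tested, since no replicates within a set are known.

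Among the cells left out for over 10% mitochondrial UMIs, 4 of 30 in set 1 were marker cells (13.3%, 3.76 to 30.7%). The interval includes the 10.0% that a count of 0 would allow. In set 2 they were 2 of 267 (0.749%, 0.0908 to 2.68%).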

How the results depend on the processing

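Over the results recomputed, 135 of 163 values were labelled the same and 28 moved, and none was labelled reversed. Counts of members were judged by a fixed fold limit and not by an interval. The 24 confined members of set 2, which became 16 where 100 UMIs were required, thus count as the same. Values at the marker-cell weight of set 1 were labelled moved in advance. The share of marker cells was 36.5% in set 1 and 7.50% in set 2 with at least 2 marker UMIs, 26.6% and 3.79% with at least 5, 19.99% and 2.45% by Cdk1, Ccna2 and Tpx2, and 23.4% in set 1 after thinning. Choosing by those 3 genes also left 8 members confined in set 1, counted without those 3 genes. It made Cenpa 1.69-fold higher in marker cells of set 1 and gave 34 members at least 2-fold lower outside. Cenpa's ratio in set 1 was 1.59 with at least 5 marker UMIs and 1.36 after thinning. Its ratio between the sets outside was 1.91 at a mitochondrial limit of 5% and 2.16 with none. With CPM + 10, the medians over all kept cells were -1.13 (S phase) and -1.44 (mitosis), and the S phase median outside was -0.50, as a larger added constant shrinks low levels. In marker cells, 2 members were at least 2-fold lower with at least 2 marker UMIs or after thinning and 1 without the 1% deepest cells, and the mitosis median was -0.30 with at least 2. The S phase median in marker cells lay between -0.23 and 0.16 over its alternatives and the mitosis median between -0.30 and 0.06, so neither has a settled direction. Outside, 11 members were at least 2-fold lower where 100 UMIs were required, and the mitosis median was -1.61 after thinning and lay between that and -0.22 over its alternatives. At the marker-cell weight of set 1, 2 members were at least 2-fold lower, with medians of -0.36 and -0.13. The share of S-leaning marker cells was 35.3% and 29.4% with 17 mitosis genes, against 3.33% and 3.95% with all 23. Where no value shows it, the cause was not tested. No paired analysis was possible because no source used here gives replicates or pairs within a set. Depth limits members with few outside UMIs, such as Plk1 with 8 and 3.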
